A study of Mus musculus with 14 samples.

Results

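The superoxide dismutase genes Sod1, Sod2 and Sod3 and the copper chaperone gene Ccs were followed through the cell classes of mouse spinal cord in 14 single-cell RNA-seq libraries. The 4 genes were found by symbol among 55335 genes in the feature list of the deposited matrices, and each symbol matched 1 row. The libraries came from whole spinal cord of mice of postnatal age P115-120 days, which the series design places at mid-disease, and fell into 4 groups by title. The SOD1G93A group (3 libraries, strain B6SJL-Tg(SOD1*G93A)1Gur/J) carried a mutant human SOD1 transgene, a mouse model for amyotrophic lateral sclerosis. The SOD1G93A/Clec7a-KO group (4 libraries) carried that transgene and lacked Clec7a, a pattern-recognition receptor of myeloid cells also called Dectin-1. The nTg group (3 libraries) was non-transgenic, and the Clec7a-KO group (4 libraries, strain B6.129S6-Clec7atm1Gdb/J) lacked Clec7a without the transgene. The labels give no strain beyond the genotype for the other 2 groups. The transgene is a multicopy human SOD1 sequence driven by its own human promoter in all tissues, and the Clec7a deletion is a germline one, so no group limits either change to a cell type. The files hold 1 row for Sod1 and none for the human gene, so counts on that row cannot be told apart into transgene and mouse transcripts.

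Superoxide dismutases turn superoxide into hydrogen peroxide and oxygen. Sod1 encodes the copper and zinc enzyme of the cytosol and mitochondrial intermembrane space, Sod2 the manganese enzyme of the mitochondrial matrix, and Sod3 a secreted copper and zinc enzyme that binds the extracellular matrix. Ccs encodes the chaperone that loads copper into SOD1 and helps form its internal disulfide bond. Dominant mutations of SOD1 cause a familial form of amyotrophic lateral sclerosis, in which motor neurons die and microglia and astrocytes become reactive. Sod2 is a textbook target of NF-kB and inflammatory cytokines, and Sod3 is known from blood vessel walls.

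In GRCm38 with GENCODE vM21, Sod1 (ENSMUSG00000022982.10) lies on the plus strand at chr16:90220754-90226329, and its last 650 bases overlap Scaf4 on the other strand. Sod2 (ENSMUSG00000006818.5) is at chr17:13006846-13040063 on the plus strand, Sod3 (ENSMUSG00000072941.5) at chr5:52363791-52371418 on the plus strand, and Ccs (ENSMUSG00000034108.6) at chr19:4825366-4839332 on the minus strand. The annotation also holds Gm8566 (ENSMUSG00000047905.10), a processed pseudogene of Sod1 at chr6:67205619-67206083 on the plus strand, inside the span of Gm38825. The coding sequence of Sod1 and the pseudogene are both 465 bases long, align without gaps and differ at 10 bases (97.8% identity).

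The libraries held 3096 to 12367 cell barcodes and 28819852 to 141204912 unique molecular identifiers (UMIs) each, with a median of 5190.5 to 14886 UMIs per barcode. Of 108892 barcodes, 89759 were kept, and 1504 of 107376 distinct barcode sequences occurred in more than 1 library. Clustering without the 4 genes gave 28 clusters, grouped by marker genes into microglia-like (52242 cells), endothelial-like (11381), ependymal-like (7655), astrocyte-like (5809), oligodendrocyte precursor-like (3905), mural-like (1742), neuron-like (1290), T and NK cell-like (797), border-associated macrophage-like (540) and oligodendrocyte-like (70) classes, written below without "-like". A further 4328 cells stayed unnamed. Protocols included removal of myelin, and oligodendrocytes were the smallest class. The first 6 of these classes had at least 20 cells in every library and were tested, although SOD1G93A/Clec7a-KO library 4 gave only 28 ependymal cells, 35 astrocytes and 95 oligodendrocyte precursors, the lowest numbers of these 3 classes. The fewest mural cells were 51, in SOD1G93A/Clec7a-KO library 2. Clec7a had 33 to 240 UMIs in the 8 libraries labelled as knockouts, 755 to 1767 in nTg and 57449 to 101134 in SOD1G93A libraries. Xist exceeded Ddx3y in 4 libraries (nTg 1 and 3, Clec7a-KO 3 and SOD1G93A/Clec7a-KO 4), so sex was not the same across libraries. The labels number the SOD1G93A libraries 1, 5 and 6 and the nTg libraries 8, 9 and 12. Library number thus separates these 2 groups, and sex differs between them. In SOD1G93A minus nTg the part of either cannot be told apart from the group difference. The labels do not say that the libraries are separate animals, and p-values then measure only the spread between these libraries.

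Levels are given as UMIs of a gene per 1000000 UMIs of the class (CPM). In the 7 libraries without the transgene, Sod1 was detected in every class. On the plain scale of class totals its mean was 251 ± 89.7 CPM in neurons, 237 ± 51.8 in endothelial cells, 232 ± 48.7 in ependymal cells and 135 ± 20.1 in astrocytes (SD, n = 7). Below these came T and NK cells at 121 ± 56.1, oligodendrocyte precursors at 116 ± 27.8, mural cells at 108 ± 36.2, microglia at 79.0 ± 27.0 and border-associated macrophages at 71.4 ± 24.1. The ranges of all neighbours in that order overlapped, so the order is not fixed by these libraries, but the lowest endothelial value (163 CPM) stood above the highest microglial one (114.6 CPM). The cluster that held most neurons, led by Sst and Scg2, had 158 CPM, below the endothelial and ependymal means.

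Sod2 was also present in every class of these 7 libraries. It was highest in ependymal cells (195 ± 13.9 CPM), astrocytes (192 ± 25.3) and neurons (171 ± 23.2), followed by oligodendrocyte precursors (147 ± 11.4) and mural cells (126 ± 22.5). T and NK cells (97.1 ± 28.5), endothelial cells (92.3 ± 7.55), microglia (85.9 ± 7.14) and border-associated macrophages (84.7 ± 17.1) were lower. Neighbours overlapped throughout.

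Sod3 had the most uneven distribution of the 4 genes. Its mean was 823 ± 286 CPM in mural cells, with a range of 649 to 1443 that did not overlap the 64.6 to 244 of ependymal cells (mean 112 ± 62.2). Astrocytes followed at 50.6 ± 14.5 CPM and overlapped ependymal cells, and the other named classes had means of 7.36 CPM or less. Among the unnamed cells, a cluster led by Abcc9, Rgs5 and Vtn (2416 cells in these libraries) had 240 CPM. Oligodendrocytes had 0 Sod3 UMIs of 163648, which allows a level of up to 18.3 CPM (3 counts of the total), and microglia had 1.13 ± 0.493 CPM.

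Ccs stood out in ependymal cells, the ciliated lining of the central canal, at 145 ± 21.8 CPM. Their lowest library (125 CPM) was above all libraries of the next class with 7 values, mural cells (54.4 ± 10.5). Astrocytes (51.8 ± 6.20), endothelial cells (49.9 ± 4.93) and oligodendrocyte precursors (33.4 ± 8.48) followed, and microglia (28.0 ± 2.40), neurons (24.9 ± 8.52) and T and NK cells (17.7 ± 15.1) were lowest.

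From here CPM of the 6 tested classes uses library sizes scaled with trimmed means of M-values (TMM), except where plain totals are named. TMM assumes that most genes keep their level. In microglia these scaling factors were 0.772 to 0.927 in the 7 transgenic libraries and 1.04 to 1.25 in the 7 others, a mean difference of -0.49 on the log2 scale, against -0.06 to -0.01 in the other classes. Without the scaling, the median log2 fold change of all 16702 microglial genes tested was -0.45 for SOD1G93A minus nTg and -0.50 for SOD1G93A/Clec7a-KO minus Clec7a-KO, so microglial comparisons with the transgene below are also given on the plain scale where that changes a call or a direction. Of the tested microglial genes 3326 were called higher and 2239 lower in the first comparison, and 4273 and 3417 in the second. On plain totals the splits were 1480 and 5966 (8.86% and 35.7% of the genes tested), and 1906 and 7690 (11.4% and 46%).

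The Sod1 row, whose counts include the transgene, rose in all 6 tested classes in both comparisons with the transgene. A rise was thus fixed by the design, and mouse Sod1 cannot be read from these tests. In microglia it was 1620, 2196 and 2516 CPM in SOD1G93A libraries and 2278, 2603, 2840 and 3212 in SOD1G93A/Clec7a-KO libraries. The nTg libraries had 91.7, 52.8 and 55.6 CPM, and the Clec7a-KO libraries 82.9, 85.1, 56.4 and 36.8. The transgenic libraries lay above all others with no overlap. The log2 fold change was 4.98 (SE 0.36, adjusted p = 4.25e-07) for SOD1G93A minus nTg and 5.38 (SE 0.32, adjusted p = 3.72e-08) for SOD1G93A/Clec7a-KO minus Clec7a-KO by edgeR's quasi-likelihood test with Benjamini-Hochberg adjustment over all genes of the class. In the same comparisons 33.3% and 46% of microglial genes were called in either direction, against 0.77% and 0.854% in endothelial cells, 1.1% and 1.46% in ependymal cells, 33.2% and 34% in astrocytes, 0.12% and 0.878% in mural cells and 1.65% and 4.54% in oligodendrocyte precursors.

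**Figure D1:**
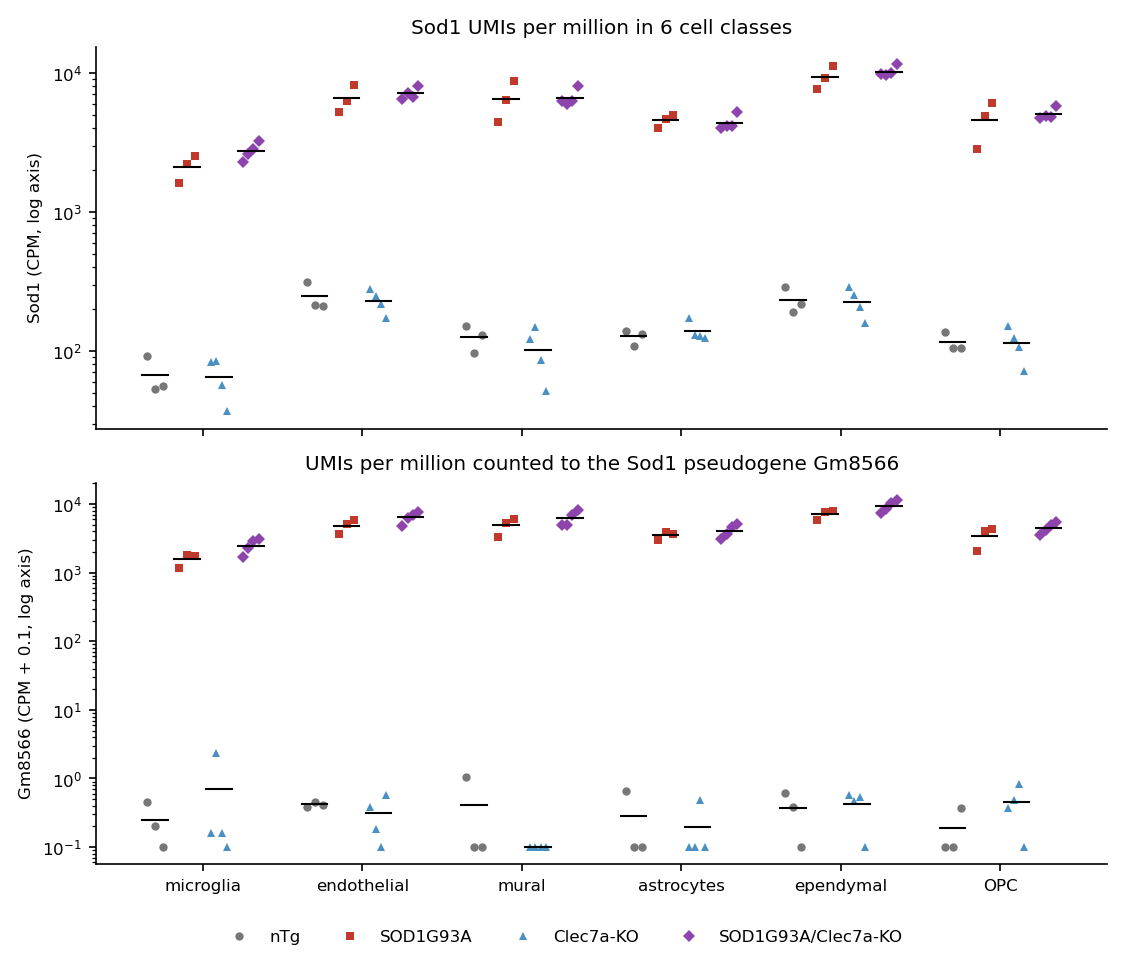
Sod1 (top) and Gm8566 (bottom, plus 0.1) in CPM on log axes, for the 6 tested classes and 4 groups, with a point per library and a short line at the mean. Transgenic libraries lie above the others in every class, from 1620 CPM upwards for Sod1 in microglia against at most 91.7 CPM. Counts of Sod1 include the transgene.

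The highest Sod1 levels with the transgene were in ependymal cells. Their SOD1G93A libraries had 7598, 9183 and 11282 CPM and their SOD1G93A/Clec7a-KO libraries 9800, 9650, 9954 and 11518, against 160 to 289 CPM in the 7 others. Endothelial cells had 5216, 6277 and 8229 CPM, and 6439, 7214, 6706 and 8085, against 172 to 314. In mural cells the values were 4449, 6340 and 8725 CPM, and 6244, 5946, 6284 and 8064, against 51.8 to 151. Astrocytes (3987 to 5241 CPM with the transgene, 109 to 174 without) and oligodendrocyte precursors (2841 to 6058 and 71.3 to 151) had means between those of these classes and of microglia, though library values overlapped, and groups with and without the transgene did not overlap in any class. Over all genes tested, the share whose libraries did not overlap was 53.8% and 36.5% in microglia, 48.9% and 25.1% in astrocytes, 13.5% and 5% in endothelial cells, 18% and 5.64% in ependymal cells, 11.7% and 3.6% in mural cells and 22.3% and 10.2% in oligodendrocyte precursors (SOD1G93A minus nTg and SOD1G93A/Clec7a-KO minus Clec7a-KO). Means over 7 transgenic and 7 other libraries gave ratios of 58.7 in mural cells, 43.1 in ependymal cells, 42.4 in oligodendrocyte precursors, 37.4 in microglia, 33.4 in astrocytes and 29.2 in endothelial cells. Neurons, which were too few for a test, had, on plain totals, 7706 ± 1980 CPM (SD, n = 6) with the transgene and 251 ± 89.7 (n = 7) without, a ratio of 30.8, and their lowest transgenic value was 4138 CPM. The neuron cluster led by Sst and Scg2 had a lower mean of 5209 CPM over 5 transgenic libraries. An unnamed cluster led by the mural marker genes Abcc9, Rgs5 and Vtn was in no tested class. On plain totals it had 6722 CPM with the transgene and 224 CPM without it, so the mural values depend on which clusters were named. Across the 6 tested classes the log2 fold changes were 4.74 to 5.68 and 4.96 to 6.0, the smallest in endothelial and the largest in mural cells in both comparisons. On plain totals the smallest were in microglia (4.51 and 4.84), and mural cells stayed the largest (5.66 and 5.95).

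Whether the rise differed between classes was tested within libraries. For each library, log2(CPM + 1) in microglia was subtracted from that in another class, and the 7 transgenic libraries were compared with the 7 others by a two-sided exact permutation test over the 3432 splits, with Benjamini-Hochberg adjustment over 20 pairs of gene and class. The Sod1 difference was larger by 0.67 in mural cells than in microglia (adjusted p = 0.00437) and smaller in endothelial cells (-0.37, adjusted p = 0.00648). Ependymal cells (0.20, adjusted p = 0.104), oligodendrocyte precursors (0.16, adjusted p = 0.185) and astrocytes (-0.18, adjusted p = 0.363) did not pass. On plain CPM the mural value grew to 1.13 (adjusted p = 0.0013), the endothelial value turned to 0.11 (adjusted p = 0.398), while ependymal cells (0.64) and oligodendrocyte precursors (0.58, both adjusted p = 0.0013) passed, so of these 3 classes the direction or call depends on the microglial scaling.

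The share of microglia with at least 1 Sod1 UMI, transgene included, showed the same contrast per cell. With cells of at least 2000 UMIs thinned to that number it was 14.7% in nTg, 13.3% in Clec7a-KO, 94.9% in SOD1G93A and 96.8% in SOD1G93A/Clec7a-KO. Thinning left out the shallower cells, 526 of 6075 in nTg, 496 of 9717 in Clec7a-KO, 419 of 15605 in SOD1G93A and 343 of 20845 in SOD1G93A/Clec7a-KO. Without thinning the shares were 45.7%, 40.5%, 99.4% and 98.7%. All classes had high shares with the transgene, so no class that lacks Sod1 was at hand to measure the background of free RNA.

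No difference of the 4 genes between groups with and without Clec7a passed the threshold. Between SOD1G93A/Clec7a-KO and SOD1G93A libraries the Sod1 log2 fold change was -0.06 to 0.37 over the 6 classes, with a lowest adjusted p of 0.577. Its largest value was in microglia, where the 95% confidence interval ran from -0.24 to 0.98. With the counts of Gm8566 added to Sod1 it was 0.07 to 0.50, again largest in microglia (adjusted p = 0.492, edgeR), and none passed. Between Clec7a-KO and nTg libraries Sod1 differed by -0.29 to 0.13. Of 23 tests of the 4 genes in each of these comparisons edgeR called 0. At an unadjusted p under 0.05 there were 2 in SOD1G93A/Clec7a-KO minus SOD1G93A and 0 in Clec7a-KO minus nTg. DESeq2 called 0 in each, of 21 tests with an adjusted p in the first and 23 in the second. Over all genes tested, the share called in SOD1G93A/Clec7a-KO minus SOD1G93A was 0.018% in microglia, 0.0156% in astrocytes, 0.00763% in endothelial cells, 0.0261% in ependymal cells, 0% in mural cells and 0.00755% in oligodendrocyte precursors. In Clec7a-KO minus nTg it was 0.0299%, 0%, 0%, 0.0261%, 0% and 0.0151% in the same order. SOD1G93A/Clec7a-KO and SOD1G93A libraries did not overlap for 3 pairs of gene and class: Sod3 in ependymal cells (101 to 196 CPM without Clec7a, 69.3 to 91.5 with it), Ccs in oligodendrocyte precursors (45.3 to 52.3 and 26.0 to 44.0) and Sod2 in mural cells (90.1 to 147 and 148 to 152). The share of all genes without overlap in this comparison was 9.02% in microglia, 5.95% in astrocytes, 5.73% in endothelial cells, 7.49% in ependymal cells, 6.57% in mural cells and 7.74% in oligodendrocyte precursors. Without the filter on low counts the Sod3 difference in ependymal cells (0.84) was called. The test of whether the transgene difference itself depended on Clec7a called 0 of 23 (0 at an unadjusted p under 0.05, DESeq2 called 0), where 0.00653% of ependymal genes and 0% in the other classes were called.

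Gm8566 rose with Sod1. Transgenic libraries had 94740 to 312329 Gm8566 UMIs, found in 90.6% to 98.4% of their barcodes. The 7 other libraries had 8 to 86 UMIs in 8 to 37 barcodes, or 0.164% to 0.408% of barcodes. A single barcode held 64 of the 86 UMIs in Clec7a-KO library 2 and 67 of the 79 in Clec7a-KO library 4, and these barcodes also held 72 and 71 Sod1 UMIs. In microglia Gm8566 was 1165 to 3092 CPM with the transgene, and in ependymal cells 5845 to 11394, whereas no tested class of the other libraries exceeded 2.26 CPM. It was called higher in all 6 classes in both comparisons. The pseudogene is nearly identical to the mouse coding sequence, the human gene is not among the rows, and which transcripts gave these counts was not tested.

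The ratio of Gm8566 to Sod1 UMIs varied more between libraries than between classes. Over the 6 tested classes it was 0.714 to 0.769 in SOD1G93A library 1, 0.812 to 0.842 in library 2 and 0.698 to 0.730 in library 3. In SOD1G93A/Clec7a-KO libraries 1 to 4 it was 0.742 to 0.803, 0.839 to 0.888, 1.02 to 1.10 and 0.951 to 1.02. Ratios of different libraries thus spread from 0.698 to 1.10. With both rows summed, the ratio of means with and without the transgene rose to 109 in mural cells, 80.0 in ependymal cells, 68.8 in microglia and 53.5 in endothelial cells.

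**Figure D2:**
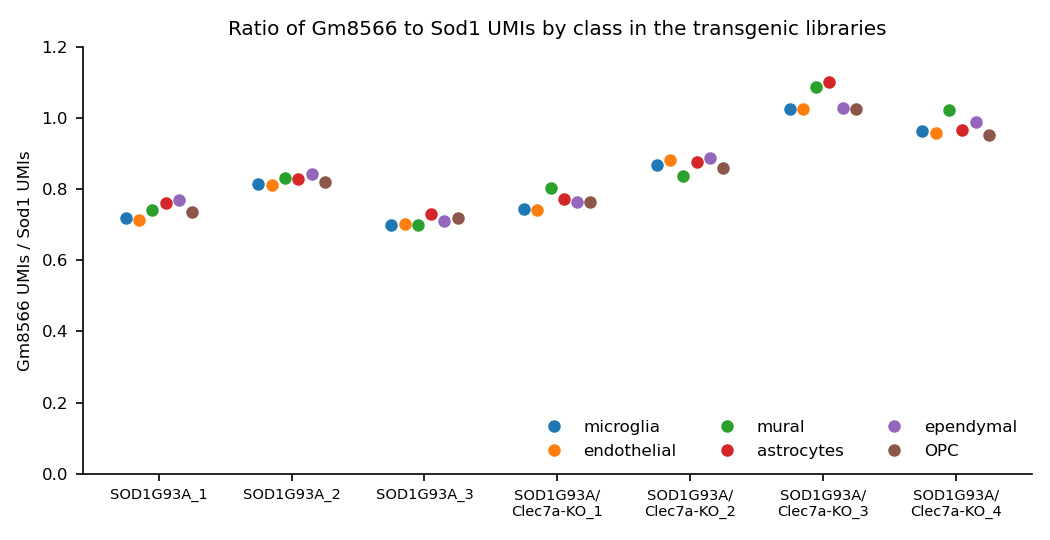
Ratio of Gm8566 to Sod1 UMIs (linear axis) in each of the 7 transgenic libraries, with a dot per tested class. The dots of 1 library cluster together, from 0.698 to 0.730 in SOD1G93A library 3 and from 1.02 to 1.10 in SOD1G93A/Clec7a-KO library 3.

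Ccs, the chaperone that supplies SOD1 with copper, was higher with the transgene in astrocytes. There it was 89.9, 79.9 and 63.5 CPM in SOD1G93A libraries and 61.9, 81.8, 87.3 and 70.4 in SOD1G93A/Clec7a-KO libraries. The nTg libraries had 46.6, 63.0 and 46.9 CPM and the Clec7a-KO libraries 55.2, 47.2, 48.2 and 52.2. SOD1G93A and nTg did not overlap, as for 48.9% of astrocyte genes, although 63.5 and 63.0 CPM nearly touched. The log2 fold change was 0.56 in both comparisons (SE 0.18, adjusted p = 0.0248, and SE 0.17, adjusted p = 0.0183, edgeR), where 18.4% and 19% of astrocyte genes were called higher. On plain totals it was 0.51 in both (adjusted p = 0.0342 and 0.0257). The first call was lost with doublets kept (0.28), with sex in the model (0.41) and without the filter on low counts (0.49). It was also lost in 4 of the fits that leave out a library. These 4 left out SOD1G93A library 1 (0.43) or 2 (0.53) or nTg library 1 (0.46) or 3 (0.47). All fits that leave out a library gave 0.43 to 0.69. The second was lost without the filter (0.47) and without SOD1G93A/Clec7a-KO library 2 or 3 or Clec7a-KO library 3.

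In microglia the Ccs values were 41.4, 32.2 and 30.1 CPM in SOD1G93A and 35.7, 49.99, 43.4 and 36.4 in SOD1G93A/Clec7a-KO, against 23.1, 24.0 and 21.3 in nTg and 27.1, 21.9, 21.3 and 26.9 in Clec7a-KO libraries. On this scale the transgenic libraries lay above all others. The log2 fold changes of 0.60 (SE 0.17, adjusted p = 0.0130) and 0.77 (SE 0.14, adjusted p = 0.000633) passed, beside 19.9% and 25.6% of microglial genes called higher. Both calls rest on the scaling, since on plain class totals they were 0.14 (adjusted p = 0.510) and 0.26 (adjusted p = 0.147). The first was also lost with sex in the model (0.46) and without SOD1G93A library 1 (0.39).

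In ependymal cells, where Ccs was most abundant, it was 258, 169 and 170 CPM in SOD1G93A, 194, 246, 177 and 158 in SOD1G93A/Clec7a-KO, 135, 153 and 131 in nTg and 196, 133, 120 and 134 in Clec7a-KO libraries. SOD1G93A libraries lay above nTg libraries, where 18% of ependymal genes did not overlap, but Clec7a-KO library 1 lay among the transgenic ones. In endothelial, ependymal, mural and oligodendrocyte precursor cells the fitted log2 fold changes were 0.31 to 0.49 in both comparisons and none passed (unadjusted p under 0.05 in 1 and 2 of 4 classes, DESeq2 called 0 in each). The Ccs difference was smaller in endothelial cells than in microglia (-0.33, adjusted p = 0.00194, exact permutation test), but on plain CPM this value was 0.14 (adjusted p = 0.102), and those of astrocytes (0.32, adjusted p = 0.00932) and ependymal cells (0.20, adjusted p = 0.0191) passed with the opposite sign to the scaled ones (-0.11 and -0.22). At 2000 UMIs per cell, 5.59% of nTg and 5.79% of Clec7a-KO microglia had a Ccs UMI, against 6.30% in SOD1G93A and 6.74% in SOD1G93A/Clec7a-KO. The shares without thinning were 21.6%, 20.0%, 36.6% and 31.1%.

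**Figure D3:**
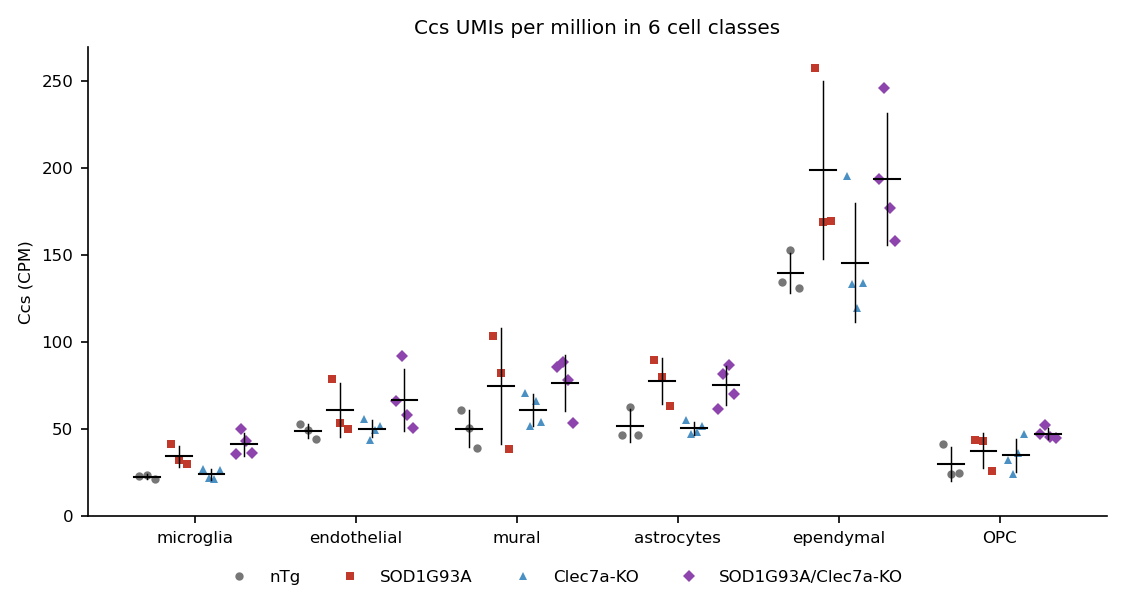
Ccs in CPM (linear axis from 0) in the 6 tested classes and 4 groups, with a point per library, a line at the mean and bars of 1 SD. Astrocyte values are 61.9 to 89.9 CPM with the transgene and 46.6 to 63.0 without it, and ependymal cells have the highest values. The microglial difference is scale-dependent and its calls are lost on plain totals.

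Sod2 rose with the transgene in microglia. It was 203, 198 and 168 CPM in SOD1G93A libraries and 153, 156, 224 and 242 in SOD1G93A/Clec7a-KO libraries. The nTg libraries had 73.3, 66.4 and 64.0 CPM and the Clec7a-KO libraries 75.9, 78.7, 64.4 and 86.4. The lowest transgenic library stood well above the highest of the others. Group means were 190 ± 18.8 and 67.9 ± 4.80 CPM (SD, n = 3 each), and 194 ± 45.8 and 76.3 ± 9.11 (n = 4 each). The log2 fold changes were 1.48 (SE 0.19, adjusted p = 4.9e-05) and 1.34 (SE 0.16, adjusted p = 1.65e-05, edgeR), beside 19.9% and 25.6% of microglial genes called higher. On plain totals they were still called, at 1.02 (adjusted p = 0.000286) and 0.82 (adjusted p = 0.000246, edgeR), beside 8.86% and 11.4%. Between SOD1G93A/Clec7a-KO and SOD1G93A microglia Sod2 differed by 0.03 on the log2 scale, with a 95% confidence interval of -0.34 to 0.40, and by -0.11 on plain totals, and neither passed.

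In the other 5 tested classes no Sod2 comparison with the transgene passed (log2 fold changes of -0.17 to 0.29, unadjusted p under 0.05 in 0 of 5 classes in each, DESeq2 called 0 in each). Means over 7 transgenic and 7 other libraries were 216 ± 38.9 and 192 ± 17.5 CPM in ependymal cells, and 161 ± 14.3 and 145 ± 14.3 in oligodendrocyte precursors. In the latter the SOD1G93A libraries (163 to 168 CPM) lay just above the nTg libraries (125 to 159 CPM) without passing the test. The groups did not overlap for 22.3% of all genes of that class. Astrocytes had 182 and 190 CPM, mural cells 131 and 131, and endothelial cells 98.7 and 92.4. Border-associated macrophages, which were not tested, had 128 ± 20.6 and 84.7 ± 17.1 CPM. Relative to microglia, the transgene difference of Sod2 was smaller in all 5 classes, by values of -1.45 in astrocytes, -1.38 in mural cells, -1.29 in endothelial cells, -1.23 in oligodendrocyte precursors and -1.22 in ependymal cells. Each had an adjusted p of 0.00194, from 0.000583, the smallest that the exact permutation test can give here. On plain CPM the values were -1.01, -0.92, -0.80, -0.80 and -0.79 in the same order and still passed (adjusted p = 0.0013, exact permutation test).

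**Figure D4:**
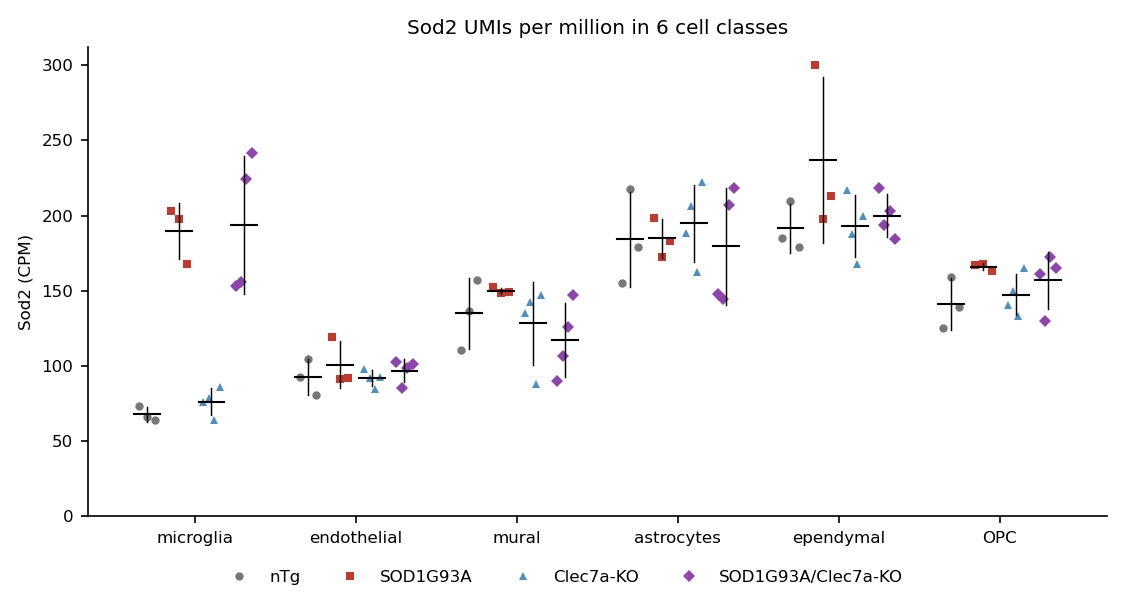
Sod2 in CPM (linear axis from 0) in the 6 tested classes and 4 groups, with a point per library, a line at the mean and bars of 1 SD. Microglia have 153 to 242 CPM with the transgene and 64.0 to 86.4 without, while libraries with and without the transgene overlap in the other classes.

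Within microglia Sod2 differed between clusters and, in some clusters, between cells with and without the transgene. These clusters were formed without Sod2, and their cell numbers differ between groups, so the values are descriptions. They are CPM on plain totals, averaged over libraries with at least 20 cells of the cluster. The microglial scaling factors differed by -0.49 on the log2 scale between libraries with and without the transgene. Whether differences within a cluster keep their size or direction on the scaled sizes was not tested. A cluster led by Mmp12 and Cxcl1 (458 transgenic cells) had 280 CPM over 4 libraries, and one led by Il12b and Cxcl10 (6631 cells) had 205 CPM. Without the transgene the Il12b cluster held 186 cells, and its mean was 217 CPM over the 3 libraries with at least 20 of them. The large transgenic cluster led by Postn, Lpl and Spp1 (8150 cells) had 181 CPM, and the Gpnmb cluster (4760 cells) 120 CPM. In the cluster led by the homeostatic genes P2ry12 and Tmem119, Sod2 on plain totals was 96.0 CPM in 1666 transgenic and 78.0 CPM in 9954 other cells. The cluster led by C1qa and Hcar2 had 109 CPM with the transgene (9167 cells). Without it the cluster held 241 cells, with a mean of 138 CPM over 4 libraries, both on plain totals. The cluster led by Ifit2 had 126 CPM with the transgene and 66.1 CPM without it (98 cells, 2 libraries). The Mki67 cluster had 132 and 75.5 CPM, and the one led by Tsix and Xist 140 and 77.2 CPM. The cluster led by haemoglobin genes had 83.6 and 80.4 CPM, and the one led by H2-Aa 171 and 330 CPM. The values of 75.5, 140 and 330 CPM came from 1 library each.

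The share of microglia with a Sod2 UMI at 2000 UMIs per cell was 14.3% in nTg and in Clec7a-KO, 25.3% in SOD1G93A and 23.9% in SOD1G93A/Clec7a-KO. Without thinning it was 44.0%, 41.8%, 74.6% and 66.4%. Median depth of microglia per library was 7228 to 10303 UMIs in nTg, 5308.5 to 10800 in Clec7a-KO, 8867 to 21811 in SOD1G93A and 9003 to 12660 in SOD1G93A/Clec7a-KO, so only the thinned shares are at equal depth. Genes of the dissociation stress response moved along with the groups: their summed level in microglia was 33421 to 42784 CPM in nTg and 36910 to 54392 in Clec7a-KO, against 21464 to 24973 and 21449 to 29210 in the 2 transgenic groups. Their part in the Sod2 result was not tested.

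The promoter of Sod2 is shown for the motifs of inflammatory and basal factors around its start. The 250 bases before the start given by RefSeq are chr17:13007589-13007838 on the plus strand of GRCm38.p6. This window lies inside the GENCODE span of Sod2, which begins at 13006846, so the annotations differ on the start. Capitals mark the 4 GC boxes (GGGCGG on either strand).
Sod2 promoter: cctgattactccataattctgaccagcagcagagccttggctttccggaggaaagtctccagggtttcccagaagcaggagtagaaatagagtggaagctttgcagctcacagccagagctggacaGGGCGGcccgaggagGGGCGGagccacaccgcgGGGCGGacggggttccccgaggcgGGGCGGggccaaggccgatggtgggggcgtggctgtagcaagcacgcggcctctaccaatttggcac
The GC box is bound by SP1-type factors and occurs in 32.7% of 32851 RefSeq promoters of this length. The window also holds 1 match to the kappa B motif, at base 168, between the third and the fourth GC box, a match found in 3.90% of promoters. A CCAAT box starts at base 239 (33.8% of promoters). Neither the AP-1 motif TGANTCA (6.75%) nor the antioxidant response element TGACNNNGC (10.2%) had a match in this window, with both strands searched. A match of letters is a description and shows no binding.

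Sod3 was lower with the transgene in astrocytes of the SOD1G93A group. It was 18.8, 27.8 and 20.0 CPM in SOD1G93A and 31.4, 47.7 and 55.0 in nTg libraries. The groups did not overlap, as for 48.9% of astrocyte genes. The log2 fold change was -1.03 (SE 0.33, adjusted p = 0.0231, edgeR), where 14.8% of astrocyte genes were called lower. SOD1G93A/Clec7a-KO libraries had 24.7, 20.7, 58.2 and 63.4 CPM and Clec7a-KO libraries 49.6, 38.6, 50.5 and 78.3, which overlapped (-0.68, adjusted p = 0.101). The test of a difference between these 2 comparisons did not pass. The first call was lost with sex (-1.01) or library number (-0.55) in the model and without SOD1G93A library 1 (-0.97) or 3 (-0.95) or nTg library 3 (-0.86). Library number separates SOD1G93A from nTg and sex differs between them, so the part of these covariates cannot be told apart from the group difference. The second comparison was called with doublets kept (-0.91), without the filter on low counts (-0.76) and without SOD1G93A/Clec7a-KO library 3 (-1.02). Astrocytes fell into 2 clusters, given here on plain totals. In the one led by Slc7a10, Sod3 was 34.0 CPM with the transgene (915 cells) and 53.0 CPM without it (3668 cells). In the one led by Gfap and S100a6 it was 18.3 CPM (856 cells) and 19.5 CPM (370 cells).

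Markers of other cell types moved with the groups in the astrocyte class. The 12 microglial markers summed to 1345 to 4381 CPM in SOD1G93A and 1873 to 10597 in SOD1G93A/Clec7a-KO, against 208 to 377 in nTg and 229 to 809 in Clec7a-KO libraries. The 8 mural markers summed to 207 to 415 and 169 to 352 CPM, against 71.3 to 116 and 48.7 to 176. The astrocytes' own 8 markers summed to 18805 to 20964 and 15128 to 20471 CPM, against 13868 to 16678 and 12139 to 17669. The 20 dissociation stress genes summed to 1394 to 2639 and 1942 to 5551 CPM in these astrocytes, against 743 to 913 and 888 to 1237, and 15 and 16 of them rose while 0 fell, where 18.4% and 19% of astrocyte genes were called higher and 14.8% and 15.1% lower. The cluster led by Gfap and S100a6 held 856 transgenic and 370 other astrocytes, with mean Ccs on plain totals at 84.4 and 64.2 CPM, and the one led by Slc7a10 held 915 and 3668, with Ccs at 67.2 and 51.0 CPM. The part of these markers, stress genes and clusters in the Ccs and Sod3 results of astrocytes was not tested.

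In mural cells, where it was most abundant, Sod3 was 717, 570 and 831 CPM in SOD1G93A, 828, 435, 1996 and 2131 in SOD1G93A/Clec7a-KO, 661, 675 and 744 in nTg and 685, 761, 932 and 1556 in Clec7a-KO libraries. The groups overlapped, and neither comparison with the transgene passed (log2 fold changes of 0.03 and 0.47). SOD1G93A/Clec7a-KO minus SOD1G93A was 0.95 and did not pass (adjusted p = 0.504). Ependymal cells had 69.3, 83.7 and 91.5 CPM, 111, 101, 196 and 196, 63.0, 80.5 and 110, and 70.2, 86.0, 118 and 251 in the same order of groups. The 3 highest values of both classes were in the same 3 libraries, SOD1G93A/Clec7a-KO 3 and 4 and Clec7a-KO 4, which the labels number 13, 15 and 16, a pattern noticed after the values were seen. The 3 highest astrocyte values (58.2, 63.4 and 78.3 CPM) came from these libraries too, of which the first 2 are the transgenic ones that overlap the Clec7a-KO group. Mural cells fell into a cluster led by the pericyte genes Vtn and Kcnj8 and a smaller one led by the smooth muscle genes Acta2 and Tagln. On plain totals the first had 1184 CPM of Sod3 in transgenic and 973 in other cells. The unnamed cluster led by Abcc9, Rgs5 and Vtn (1479 transgenic and 2416 other cells) had 291 and 240 CPM. An unnamed one led by Apod, Dcn and Col1a1 had 234 and 235 CPM, each from 1 library.

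In microglia Sod3 had only 348 UMIs over all 14 libraries, or 0.259 to 0.667 CPM with and 0.502 to 1.83 CPM without the transgene. The ranges overlapped. SOD1G93A/Clec7a-KO minus Clec7a-KO was -1.15 on the log2 scale (SE 0.43, adjusted p = 0.0390), beside 20.5% of microglial genes called lower, and SOD1G93A minus nTg was -0.87 (adjusted p = 0.190). On plain totals both passed (-1.64 and -1.33). The first call was lost with doublets kept (-0.91) and without SOD1G93A/Clec7a-KO library 2 or 4 or Clec7a-KO library 1 or 4 (-1.14 to -0.87). The thinned share of microglia with a Sod3 UMI was 0.202% in nTg, 0.284% in Clec7a-KO, 0.0715% in SOD1G93A and 0.0579% in SOD1G93A/Clec7a-KO. Endothelial cells had 2.17 to 9.39 CPM, and their transgene difference exceeded that in microglia by 0.70 (adjusted p = 0.00437, exact permutation test). At these levels the size depended on the pseudocount, at 0.29 with 5 CPM and 1.23 with 0.1 CPM, and both values passed. Oligodendrocyte precursors had 0.864 CPM in the libraries without the transgene, and the part of free RNA in either value was not tested.

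**Figure D5:**
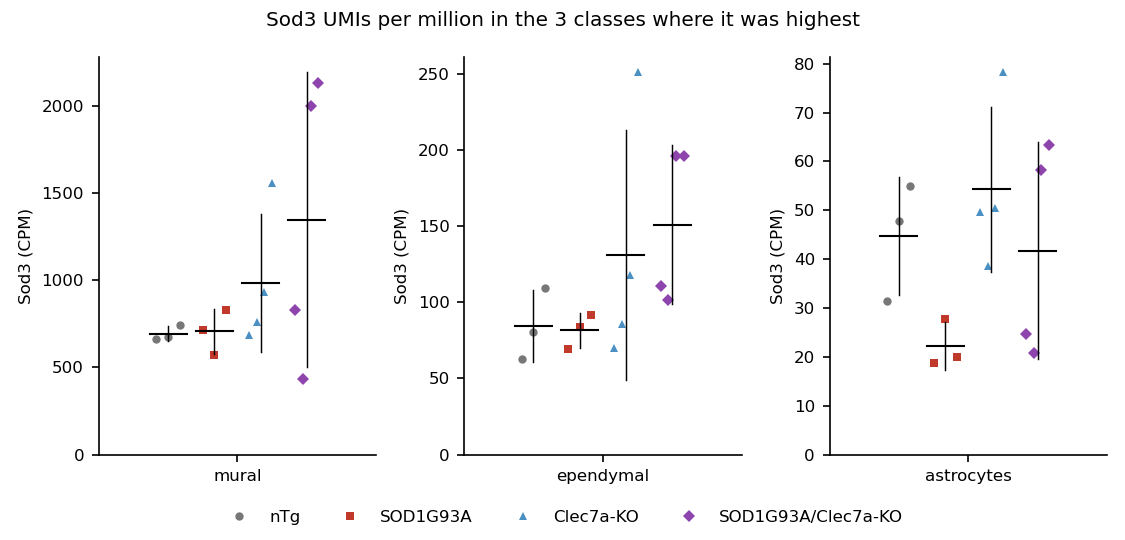
Sod3 in CPM (linear axes from 0, a panel each for mural cells, ependymal cells and astrocytes) in the 4 groups, with a point per library, a line at the mean and bars of 1 SD. Mural values reach 2131 CPM in SOD1G93A/Clec7a-KO library 4, and astrocyte values of SOD1G93A (18.8 to 27.8 CPM) lie below those of nTg (31.4 to 55.0 CPM).

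Other genes of the same pathways were read in microglia from lists of known genes. Over all microglial genes, 19.9% were called higher and 13.4% lower in SOD1G93A minus nTg, and 25.6% and 20.5% in SOD1G93A/Clec7a-KO minus Clec7a-KO. On plain totals these shares were 8.86% higher and 35.7% lower, and 11.4% and 46%, and counts on that scale below are to be read beside them. Superoxide is made by the NADPH oxidase, whose 6 genes include Cybb, the catalytic subunit, and Cyba, its membrane partner. On the TMM scale 3 rose and 0 fell in both comparisons, and on plain totals 2 rose and 1 fell, and 2 rose and 3 fell. Cybb was 516 ± 206 CPM in SOD1G93A and 20.4 ± 6.45 in nTg libraries (SD, n = 3 each), a log2 fold change of 4.67 (adjusted p = 3.59e-07), and 3.92 in the second comparison. Cyba differed by 1.59 (adjusted p = 5.58e-05) and 1.64.

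Peroxide, the product of the dismutases, is removed by peroxidases and their reducing partners. Of 18 such genes 12 rose and 0 fell in SOD1G93A minus nTg, and 15 and 0 in SOD1G93A/Clec7a-KO minus Clec7a-KO. On plain totals, where 8.86% and 11.4% of all microglial genes were called higher, 8 and 12 rose and 0 fell. Gpx3, a secreted glutathione peroxidase, was 15.3 ± 2.09 CPM in SOD1G93A and 0.326 ± 0.139 in nTg libraries (log2 fold change 5.45, adjusted p = 4.25e-07) and 5.52 in the second comparison. Prdx4, the peroxiredoxin of the endoplasmic reticulum, differed by 1.86 (adjusted p = 6.14e-07) and 1.75.

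Copper reaches Sod1, Sod3 and Ccs through carriers and stores. Of the 16 copper-handling genes 15 were tested, of which 6 rose and 1 fell, and 9 rose and 0 fell. On plain totals 1 rose and 1 fell, and 2 rose and 4 fell, and the list's medians were 0.011 and 0.23 beside -0.45 and -0.50 over all genes. Cp (ceruloplasmin, a copper-carrying ferroxidase) differed by 2.36 (adjusted p = 0.00248, edgeR) and 1.68, and Commd1 (a factor in copper export) by 0.87 (adjusted p = 0.00079, edgeR) and 0.86. The level of Cp was low, at 4.57 ± 3.01 CPM in SOD1G93A and 0.876 ± 0.255 in nTg libraries (SD, n = 3 each). It was 3.37 ± 1.07 CPM in SOD1G93A/Clec7a-KO and 1.01 ± 0.373 in Clec7a-KO libraries (n = 4 each). On plain totals Cp was still called in both comparisons (1.87 and 1.16), whereas Commd1 was not (0.41, adjusted p = 0.0781, and 0.34, adjusted p = 0.0713). Mt3, a metallothionein that binds copper and zinc, differed by -1.63 (adjusted p = 0.0170) and -0.87 (adjusted p = 0.0924), and on plain totals both passed (-2.11 and -1.36).

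Of the 15 NF-kB response genes 5 rose and 1 fell in the first comparison, and 5 rose and 2 fell in the second. On plain totals 4 rose and 4 fell, and 3 rose and 6 fell, where 35.7% and 46% of all microglial genes were called lower. The chemokine gene Cxcl2 differed by 3.05 in both comparisons (adjusted p = 0.000729 in the first), Ptgs2, the inducible cyclooxygenase, by 3.00 (adjusted p = 0.00294) and 2.27, and Birc3, an inhibitor of apoptosis, by -0.63 (adjusted p = 0.0114) and -0.60 (-1.09 and -1.12 on plain totals). Of the 20 dissociation stress genes 8 and 13 fell and 0 rose, and on plain totals 16 and 18 fell, beside the same 35.7% and 46%, with Klf2, a transcription factor, at -2.29 (adjusted p = 0.000206) and -2.41 and the heat shock gene Hspa1a at -1.40 (adjusted p = 0.0203) and -3.05.

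The lists did not move in microglia alone. In astrocytes, where Sod2 did not pass, 14 of 15 NF-kB and 6 of 6 NADPH oxidase genes rose and 0 fell in both comparisons, as did 11 of 18 peroxide removal genes, where 18.4% and 19% of astrocyte genes were called higher. Of 16 copper handling genes 4 and 5 rose there and 0 and 1 fell. The microglial markers raised in that class are given above, and their part in these counts was not tested. NF-kB genes that rose were 7 and 6 of 14 in ependymal cells and 9 and 4 of 13 in oligodendrocyte precursors. They were 4 and 4 of 15 in endothelial and 1 and 6 of 12 in mural cells, and 0 fell. Of all genes 1.1% and 1.46%, 1.65% and 4.54%, 0.77% and 0.854%, and 0.12% and 0.878% were called there in either direction. Sod2 did not pass in these classes, and copper handling had 0 calls. NADPH oxidase genes that rose were 2 and 2 of 6 in ependymal cells, 1 and 2 of 5 in oligodendrocyte precursors and 2 and 1 of 6 in endothelial cells. In mural cells 0 of 3 rose in each comparison. The part of microglial RNA in the NF-kB and NADPH oxidase counts of these classes was not tested. Medians of these lists in microglia in SOD1G93A minus nTg were 1.00 for peroxide removal, 0.48 for copper handling, 0.40 for NADPH oxidase, 0.34 for the NF-kB response and -0.63 for dissociation stress, beside 0.011 over all genes tested. On plain totals they were 0.55, 0.011, -0.07, -0.13 and -1.10 beside -0.45. In SOD1G93A/Clec7a-KO minus SOD1G93A and in Clec7a-KO minus nTg edgeR called 0 genes of the 5 lists (6 and 3 at an unadjusted p under 0.05, DESeq2 called 0 in each).

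The genes whose level was most like each of the 4 were taken by Pearson correlation of log2(CPM + 1), as descriptions. Over the 14 libraries in microglia, which share depth and group, Sod1 was most like Gm8566 (r = 0.995), Iqgap1 (0.989) and Fabp5 (0.988), and Sod2 like Chst2 (0.987), Eif4b (0.987) and Lmnb1 (0.986). Ccs was most like Phf5a (0.988), Tpgs1 (0.986) and Rrp7a (0.985), and Sod3, at its low level, like Mt3 (0.859), Nsrp1 (0.824) and Gmeb1 (0.824). Across 10 classes of the libraries without the transgene, the nearest genes were Stmn2 (0.926), Cyb561 (0.920) and Gm45457 (0.915) for Sod1, and Gpr19 (0.984), B3galt1 (0.982) and Slc4a8 (0.974) for Sod2. For Sod3 they were Col4a5 (0.965), Ddit4l (0.963) and Pcdh18 (0.960), and for Ccs Nubpl (0.938), Ccdc191 (0.937) and Rdh10 (0.925).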

How the data were processed

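Dissociated cells of whole mouse spinal cord were sequenced with 10x Genomics 3' v3.1 chemistry. The deposited matrices hold UMI counts per gene and barcode, which the authors made with Cell Ranger, per the submitters' processing notes (software version 3.0.2 and build mm10, per the file headers and those notes). The notes also name Seurat and DESeq2. From these counts, barcodes with at least 500 genes, 1000 UMIs and at most 15% mitochondrial UMIs were kept, and Scrublet removed 7043 doublets (expected rate 0.8% per 1000 barcodes, 2.49% to 9.90% per library). Cells were clustered with scanpy 1.11.5 (2000 variable genes without the 4 genes, 30 components, 15 neighbours, Leiden resolution 1.0, seed 1, Python 3.11.15, anndata 0.12.19, igraph 0.11.9) and named from marker lists. The UMI sums of each class in each library were tested with edgeR 4.0.16 (R 4.3.3, quasi-likelihood, TMM, filterByExpr, all 14 libraries, adjusted p under 0.05). The filter kept Sod1, Sod2 and Ccs in 6 classes and Sod3 in 5, with oligodendrocyte precursors left out. The interaction is the transgene difference without Clec7a minus that with it. Class differences used scipy 1.17.1 and a pseudocount of 1 CPM. Fits were tested on simulated data. Positions came from GENCODE vM21, which matched 54587 of 55335 gene IDs with their version. Promoters came from RefSeq GRCm38.p6 and were found for Sod1 and Sod2. No protein, human SOD1 sequence or other promoter was used here. The aligned bases of Sod1 and Gm8566 are not reported here. Floors of counts cover counting error only, and intervals of log2 fold changes come from the edgeR fit over libraries.

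Alternatives were DESeq2 1.42.0, other scaling, filters, pseudocounts, clusterings and covariates, a replicate block and leaving out each library. Plain class totals, plain CPM in class differences and the sum of Sod1 and Gm8566 were chosen after the data were seen. So was the limit on markers of a second class above which a cluster stayed unnamed. Erythrocyte markers named no cluster, since haemoglobin UMIs lay in every cluster. The 4 genes and all lists were chosen with earlier results of these data known. Named genes are the 4, the 3 genes most like each in microglia and across classes (of at least 20 CPM), and the 2 called genes of largest change in each direction of each list in SOD1G93A minus nTg microglia. Gm8566, the leading genes of clusters and other genes named beside them fall outside that rule and were named after their values were seen.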

Additional observations from a re-analysis of the deposited data

Results flagged for a closer look

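Of 48 groups of 4 libraries, 7 held 1 library far from the other 3. Chance flags about 1 in 20 groups, but the 7 cannot be set against that share, since 4 are the same gene in the same library and 1 has the other 3 libraries at 0. Sod1 in SOD1G93A/Clec7a-KO library 4 was the high one in 4 classes: 5241 CPM in astrocytes (others 4021 to 4167), 11518 in ependymal cells (9650 to 9954), 8064 in mural cells (5946 to 6284) and 5750 in oligodendrocyte precursors (4706 to 4864). This library had the fewest astrocytes, ependymal cells and oligodendrocyte precursors of all libraries (35, 28 and 95) but not the fewest mural cells (80, against 51 in library 2 of the same group). Sod1 in astrocytes of Clec7a-KO library 1 was 174 CPM (others 123 to 130). Sod3 in endothelial cells of SOD1G93A/Clec7a-KO library 3 was 9.39 CPM (others 5.06 to 5.72), and in oligodendrocyte precursors of library 1 of that group 1.43 CPM, with the others at 0.

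The transgene difference differed between classes in 9 of 20 pairs of gene and class by exact permutation tests. Relative to microglia, Sod2 was at -1.45 in astrocytes, -1.38 in mural cells, -1.29 in endothelial cells, -1.23 in oligodendrocyte precursors and -1.22 in ependymal cells (each adjusted p = 0.00194). Sod1 was at 0.67 in mural cells (adjusted p = 0.00437) and -0.37 in endothelial cells (0.00648), Sod3 at 0.70 in endothelial cells (0.00437) and Ccs at -0.33 in endothelial cells (0.00194). The Sod1 and Ccs values of endothelial cells changed sign on plain CPM.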

How the results depend on the processing

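Of the tests of the 4 genes under the alternatives, 2965 stayed on their side of the threshold, 25 lost and 5 gained a call. Some of the 2965 changed sign with neither value past the threshold. The 2 microglial Sod2 calls were kept in every alternative run, as were the 12 Sod1 calls, whose counts include the transgene. The calls that depend on a setting are those of Ccs and Sod3. With no filter on low counts Ccs in astrocytes was 0.49 (SOD1G93A minus nTg) and 0.47 (SOD1G93A/Clec7a-KO minus Clec7a-KO) and lost both calls, while Sod3 gained one at -0.76 in astrocytes (SOD1G93A/Clec7a-KO minus Clec7a-KO) and 0.84 in ependymal cells (SOD1G93A/Clec7a-KO minus SOD1G93A). With sex as a covariate the SOD1G93A minus nTg values of 0.41 (Ccs, astrocytes), 0.46 (Ccs, microglia) and -1.01 (Sod3, astrocytes) were not called, and 2551 astrocyte genes were, against 4246. With library number as a covariate the last was -0.55, and 10 NF-kB genes were called, against 6. With doublets kept, Ccs in astrocytes was 0.28 (SOD1G93A minus nTg, lost), and Sod3 in SOD1G93A/Clec7a-KO minus Clec7a-KO was -0.91 in astrocytes (gained) and -0.91 in microglia (lost). On plain class totals Ccs in microglia was 0.14 and 0.26 (both lost) and Sod3 -1.33 (SOD1G93A minus nTg, gained), and 2 copper genes (against 7), 16 stress genes (against 8) and, in the second comparison, 5 NADPH oxidase genes (against 3) were called. With only the groups compared, 14 stress genes were called. The cause of these shifts was not tested.

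Leaving out each library gave 0.43 to 0.69 and 0.46 to 0.67 for Ccs in astrocytes, 0.39 to 0.70 for Ccs in microglia (SOD1G93A minus nTg), -1.25 to -0.86 and -1.02 to -0.44 for Sod3 in astrocytes, -1.37 to -0.87 for Sod3 in microglia (SOD1G93A/Clec7a-KO minus Clec7a-KO), 5 to 9 called stress genes and 2739 to 4489 called astrocyte genes, the lowest without SOD1G93A library 3. For differences from microglia it gave -0.27 to -0.17 (Ccs) and 0.16 to 0.25 (Sod1) in ependymal cells. Plain CPM turned the differences from microglia to 0.11 (Sod1, endothelial), 0.14 (Ccs, endothelial), 0.32 (Ccs, astrocytes) and 0.20 (Ccs, ependymal) and raised Sod1 to 0.64 (ependymal) and 0.58 (oligodendrocyte precursors). A pseudocount of 5 CPM gave 0.26 for Sod1 in ependymal cells, and 0.1 CPM gave 1.05 and 1.03 for Sod3 in ependymal and mural cells, all 3 then passing. For Sod3 in endothelial cells these pseudocounts gave 0.29 and 1.23. In 178 of 3340 values the sign changed with neither value past the threshold.

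The labels number the libraries within groups, but not every pair of same-numbered libraries deviated together, so the numbers were not taken as pairs. Over the 6 classes the correlations of 19 such pairs ran from -0.38 to 0.73, with medians of 0.084 to 0.203 against -0.089 to -0.043 for other pairs, and 2 (microglia) to 7 (endothelial cells) of 14 libraries were closest to their own number. The replicate block changed no call of the 4 genes: Sod2 in microglia was 1.48 and 1.34, Ccs 0.59 and 0.77, Ccs in astrocytes 0.56 and 0.55. It moved the genes called from 101 to 173 and 112 to 169 in endothelial cells, 218 to 389 and 601 to 1039 in oligodendrocyte precursors and 9 to 19 in mural cells.

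Genes called over all alternatives ran from 39 to 489 (main 101) and 55 to 585 (112) in endothelial cells, 38 to 650 (169) and 88 to 1330 (223) in ependymal cells, 4 to 181 (9) and 37 to 300 (66) in mural cells, and 44 to 699 (218) and 209 to 1483 (601) in oligodendrocyte precursors. For SOD1G93A/Clec7a-KO minus SOD1G93A and Clec7a-KO minus nTg in microglia they ran from 3 to 42 (3) and 4 to 10 (5). In astrocytes, endothelial, ependymal, mural and precursor cells the first ran from 0 to 354 (2), 1 to 175 (1), 0 to 125 (4), 0 to 114 (0) and 0 to 122 (1), and the second from 0 to 51 (0), 0 to 92 (0), 0 to 101 (4), 0 to 7 (0) and 0 to 165 (2), each highest without the filter on low counts. The microglial Sod3 values rest on 348 UMIs in all.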
